A study of Mus musculus with 4 samples.

Results

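H19, Mest, Peg3, Dlk1, Meg3, Rian, Cdkn1c, Plagl1, Grb10 and Ndn are imprinted genes with known roles in growth control, and were picked by gene name from the count table of a mouse lung RNA sequencing study. All 10 were found among its 43346 genes, 1 row each. The study compared animals that over-express IL-33, a cytokine of the IL-1 family, with control animals, and its labels describe the material as epithelial cells of the lung (the series title says lung tissue). The IL-33 over-expression group has 2 libraries, B and E, and the control group also has 2, D and F. The labels give these letters and no replicate numbers. Each title speaks of a single mouse, which was not tested. Age, sex, strain, time point and the promoter of the transgene are not given in the labels, and each p-value reflects only the spread among the 4 libraries.

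Imprinted genes are transcribed mainly from the allele of 1 parent, because DNA methylation set in the germ line differs between the maternal and the paternal copy of an imprinting control region. Many of them lie in clusters and act on fetal and early postnatal growth, where paternally expressed genes tend to promote growth and maternally expressed genes tend to restrain it. In mice, H19, Cdkn1c, Meg3, Rian and, outside the brain, Grb10 are transcribed from the maternal allele, and Mest, Peg3, Dlk1, Plagl1 and Ndn from the paternal allele. The counts in these libraries do not separate the alleles.

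The genes form 8 loci on 5 chromosomes, and the promoters of those whose levels are contrasted below show what is annotated at their starts. RefSeq (GRCm38.p6) gave promoters, from 250 bases before to 50 after a start, for 8 of the 10 genes, with 12 starts in all. The 3 genes of the Dlk1-Dio3 domain on chromosome 12, which had similar profiles over the libraries, are printed first, then Mest, the gene with the highest level per length, and Grb10, the gene with the most even level. Capitals mark matches on either strand to the hexamer TGCCGC, the sequence bound by ZFP57, a zinc finger protein that maintains methylation at imprinting control regions.
Dlk1 (chr12:109452573-109452872, plus strand): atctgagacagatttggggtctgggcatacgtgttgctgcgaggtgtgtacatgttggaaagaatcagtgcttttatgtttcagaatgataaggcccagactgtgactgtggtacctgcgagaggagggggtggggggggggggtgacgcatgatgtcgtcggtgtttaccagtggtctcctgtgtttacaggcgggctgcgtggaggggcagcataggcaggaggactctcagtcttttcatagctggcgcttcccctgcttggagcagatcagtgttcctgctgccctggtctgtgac
Meg3 (chr12:109540746-109541045, plus strand): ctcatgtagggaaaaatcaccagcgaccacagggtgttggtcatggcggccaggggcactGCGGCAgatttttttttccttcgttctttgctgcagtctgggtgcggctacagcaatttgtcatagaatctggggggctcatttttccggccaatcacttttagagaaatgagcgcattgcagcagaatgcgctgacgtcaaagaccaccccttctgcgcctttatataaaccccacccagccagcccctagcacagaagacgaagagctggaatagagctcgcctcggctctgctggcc
Rian (chr12:109603695-109603994, plus strand): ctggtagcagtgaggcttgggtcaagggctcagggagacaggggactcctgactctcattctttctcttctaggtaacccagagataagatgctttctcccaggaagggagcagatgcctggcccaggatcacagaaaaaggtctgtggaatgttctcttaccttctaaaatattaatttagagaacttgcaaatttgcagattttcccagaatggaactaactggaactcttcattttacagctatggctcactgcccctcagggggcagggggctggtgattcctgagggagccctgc
Mest (chr6:30737800-30738099, plus strand): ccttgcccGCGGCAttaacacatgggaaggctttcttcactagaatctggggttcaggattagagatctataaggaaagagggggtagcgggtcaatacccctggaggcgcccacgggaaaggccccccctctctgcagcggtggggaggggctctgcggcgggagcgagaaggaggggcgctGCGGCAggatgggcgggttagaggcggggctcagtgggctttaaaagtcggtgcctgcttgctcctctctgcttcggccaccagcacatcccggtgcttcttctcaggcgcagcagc
Grb10 (chr11:12037371-12037670, minus strand): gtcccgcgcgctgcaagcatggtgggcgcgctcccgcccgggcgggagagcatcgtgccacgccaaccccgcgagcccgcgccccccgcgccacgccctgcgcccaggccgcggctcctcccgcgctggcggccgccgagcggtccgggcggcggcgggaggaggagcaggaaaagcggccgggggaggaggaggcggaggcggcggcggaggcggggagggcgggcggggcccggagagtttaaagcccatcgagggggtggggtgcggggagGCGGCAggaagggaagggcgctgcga
Of the 12 promoters of these genes 5 held the hexamer, among them a pair of Mest starts that lie 3 bases apart. They belonged to 4 of 8 genes (Mest, Meg3, Plagl1 and Grb10). Among all 32851 mouse promoters in the same table, 11.6% held it, a share per promoter and not per gene. The hexamer contains a CpG, and windows with it had a GC content of 53.7% (Meg3) to 80% (Grb10), against a median of 52.7% over all promoters. An enrichment was not tested. The Mest promoter shown held 2 matches, the Meg3 and Grb10 promoters 1 each, and the Dlk1 and Rian promoters 0. For genes with several starts, a window with the hexamer was printed. The other starts of Mest (8 CpG dinucleotides, at 30733256), Grb10 (9, at 12027922) and Meg3 (1, at 109545148), named by the first base of their windows, held 0 matches. In the printed windows, the number of CpG dinucleotides was 0 in the Rian window, 9 in that of Dlk1, 13 in that of Meg3, 17 in that of Mest and 45 in that of Grb10, against a median of 7 over all promoters. The Meg3 window held the TATA letters TATAAA in 2 overlapping matches, 1 per strand, and 13.6% of all promoters held at least 1. These are matches of letters and were not measured as bound or methylated here.

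Of these genes, H19, Mest, Meg3 and Rian also contain microRNAs. Those inside Meg3 (Mir1906-1 and Mir770) and Rian (Mir341, Mir1188 and Mir370) are not printed. The mature sequences of those in H19 and Mest are shown with the seed (bases 2 to 8) in capitals. The seed sets which messages they pair with. The 4 seeds shown differ.
mmu-miR-675-5p (chr7:142577112-142577133, minus strand): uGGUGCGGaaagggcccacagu
mmu-miR-675-3p (chr7:142577078-142577099, minus strand): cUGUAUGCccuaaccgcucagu
mmu-miR-335-5p (chr6:30741314-30741336, plus strand): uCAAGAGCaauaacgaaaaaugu
mmu-miR-335-3p (chr6:30741354-30741375, plus strand): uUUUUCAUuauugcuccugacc
The libraries were made from polyadenylated RNA, so the rows of these hairpins are not a measure of mature microRNAs. Mir675 had 1190 counts (B), 1661 (E), 1871 (D) and 1777 (F), between 5.39% and 5.60% of the H19 count in every library. Mir335, which lies within Mest, had 9 counts (B), 20 (E), 10 (D) and 20 (F).

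Gene counts summed to between 76120696 (B) and 87723745 (E) per library. Libraries of the same genotype differed from each other. The first principal component (54.1% of the variance) placed B at -53.4, D at -4.19, E at 27.0 and F at 30.6, an order that mixes the genotypes. The Y-linked transcripts stood at 0.551% of the level of D in B, 9.11% in E and 47.5% in F, so the libraries also differed in sex-linked transcripts, and the transgenic pair had less Y-linked RNA than the controls. Xist, the X-linked RNA typical of female cells, was lowest for D (1.19 CPM), with 356 CPM for F, 698 CPM for B and 811 CPM for E. Libraries E and F thus held both Xist and Y-linked RNA, and the reason was not tested. Il33 was at 1723 counts per 1000000 (CPM) in B and 874 in E against 117 in D and 108 in F, as the genotype labels give it. Even this 11.5-fold difference was not called by edgeR (adjusted p = 1 over all tested genes). An adjusted p of 1 below therefore does not show that a gene was unchanged. Defining markers of alveolar type 2 cells summed to between 34037 CPM (F) and 57169 CPM (B). Fibroblast, endothelial, mesothelial and leukocyte markers were present in every library too. The 7 endothelial markers summed to between 3877 CPM (B) and 6709 CPM (F). The 7 general epithelial markers summed lower in every library, to between 1711 CPM (F) and 2726 CPM (B). The alveolar type 2 sum was above both in every library. CPM is not scaled by gene length, so these sums do not rank the cell types. All values below in CPM are on library sizes scaled by TMM (trimmed mean of M values).

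All 10 genes were well above the detection limit in the lung libraries, and 3 of them stood far above the others. Compared per length, as the RPKM (reads per kilobase and per 1000000 reads) that the authors deposited, Mest averaged 129 ± 22.8, H19 123 ± 17.5 and Cdkn1c 64.8 ± 8.04 RPKM (SD, n = 4 libraries). Mest encodes an enzyme of the alpha/beta hydrolase fold, H19 a long non-coding RNA, and Cdkn1c the cyclin-dependent kinase inhibitor p57. Dlk1, a membrane protein related to Notch ligands, followed at 21.4 ± 7.29 RPKM, and Grb10, an adaptor that dampens insulin and IGF1 receptor signalling, at 19.8 ± 0.745 RPKM. Ndn, encoding the MAGE family protein necdin, stood at 13.7 ± 1.60 RPKM, the zinc finger genes Peg3 at 11.6 ± 2.15 and Plagl1 at 9.55 ± 0.685 RPKM, and the long non-coding RNAs Rian and Meg3 at 4.76 ± 1.42 and 4.75 ± 1.28 RPKM.

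The order of neighbouring levels was not fixed. H19 ranked first in B (99.1 against 97.2 RPKM for Mest) and D, and Mest ranked first in E and F. Dlk1 was above Grb10 in B (28.4 against 18.9 RPKM) and D and below it in E (16.8 against 20.4 RPKM) and F. Rian and Meg3 differed by less than their spread. Only Cdkn1c held its rank, the third, in each of the 4 libraries with no neighbour near it. The smallest count of any of these genes in any library was 1774 (Ndn in B), for which the counting error is 2.37%, and the highest and lowest library of each gene lay further apart than counting error.

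**Figure D1:**
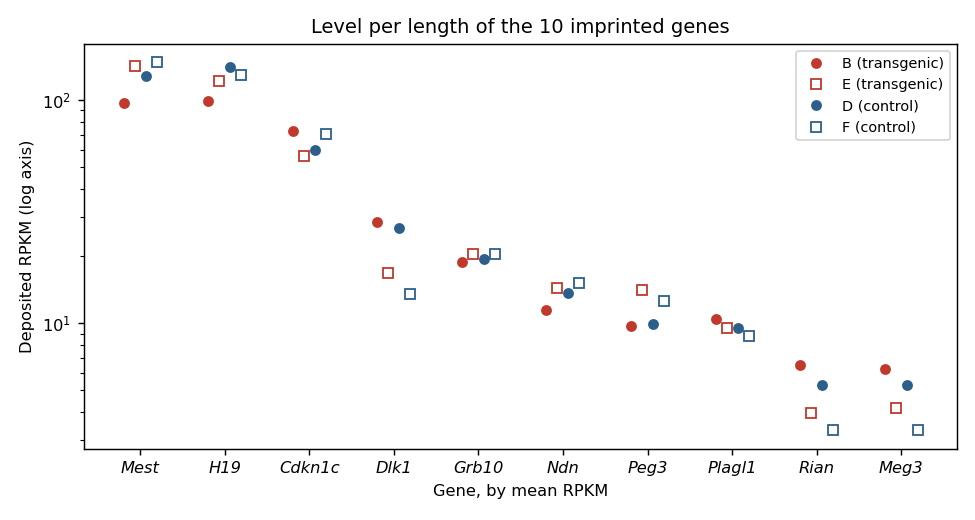
Deposited RPKM of the 10 imprinted genes on a log axis, with 1 point per library (red, transgenic B and E; blue, control D and F), ordered by the mean. Mest and H19 lie near 100 RPKM or above, and for Dlk1, Rian and Meg3 the points of B and D lie above those of E and F.

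No difference by genotype in these genes passed the test, which did not call Il33 either. For H19 the group means lay further apart than the libraries of either group. In edgeR's quasi-likelihood test of transgenic against control over 20872 genes, 0 of the 10 genes passed at an adjusted p of 0.05 with Benjamini-Hochberg adjustment, the background being 0% of all tested genes. Without adjustment, 0 of the 10 had a p under 0.05, against 1.29% of all tested genes. DESeq2 also called 0 of the 10, against 0.00335% of the genes it tested, and limma-voom 0 against 0%. The 10 log2 fold changes ran from -0.30 (H19) to 0.28 (Rian), with a median of 0.02 against -0.00128 for all tested genes, and 5 of the 10 were above 0 (49.6% of all tested genes). A complete separation with the transgenic pair lower was seen for 1 of the 10, H19 (12% of all tested genes), and with that pair higher for 0 (11.9%).

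**Figure D2:**
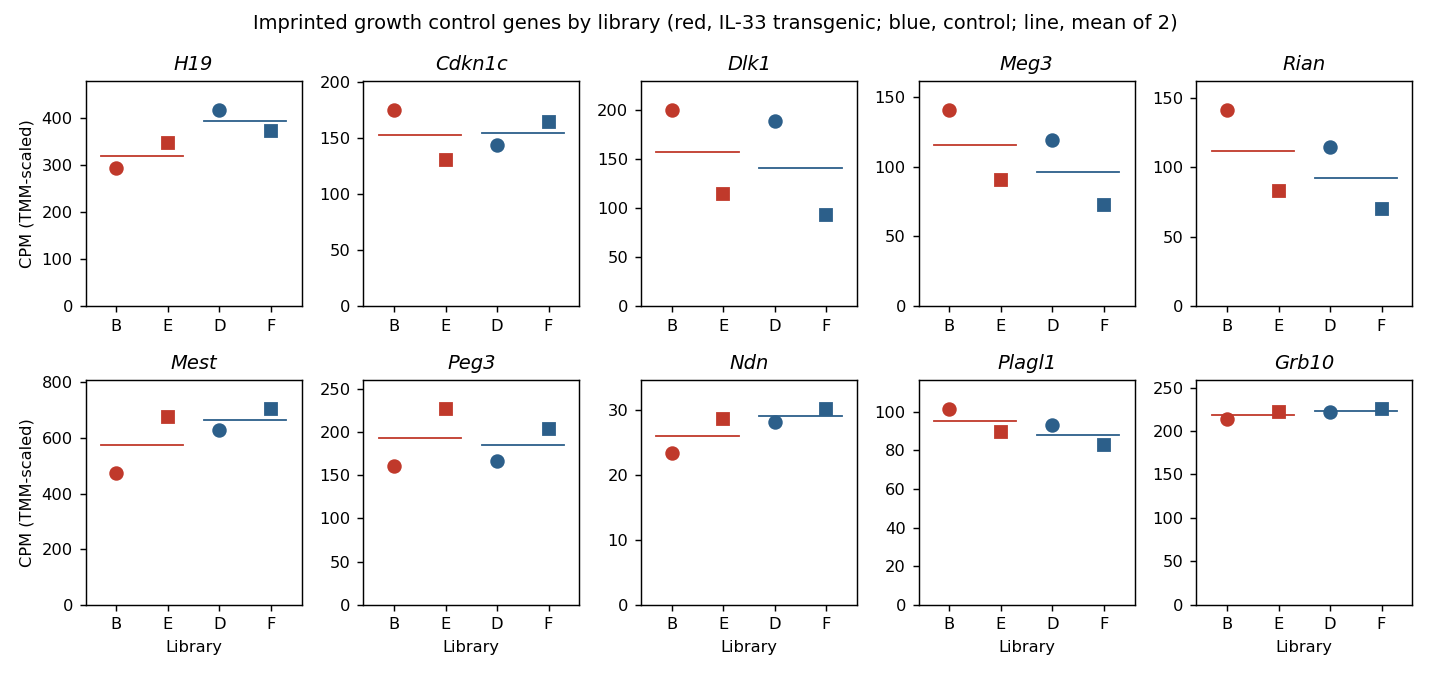
CPM of each gene in the 4 libraries (red, transgenic B and E; blue, control D and F; lines, mean of each group), each panel starting at 0. The groups overlap in every panel but that of H19, and for Dlk1, Meg3 and Rian the libraries of 1 group lie further apart than the group means.

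The genes of distal chromosome 7 come first. H19 (ENSMUSG00000000031, chromosome 7, 142575529 to 142578143, GRCm38), whose RNA restrains growth in mice and shares enhancers with the growth factor gene Igf2, stood at 292 CPM (B) and 347 CPM (E) with the transgene and at 415 CPM (D) and 372 CPM (F) without it. The transgenic libraries were the 2 lowest and the groups did not overlap. The means were 319.7 ± 38.9 CPM for the transgenic and 394 ± 30.5 CPM for the control pair (SD, n = 2 each), a log2 fold change of -0.30 (SE 0.15, adjusted p = 1 by edgeR). Leaving out 1 library moved that value between -0.44 and -0.18, and it was -0.05 once the Y-linked share entered the fit as a covariate. That share largely followed genotype, so the fit can hardly separate them, and -0.05 is not a sex-adjusted effect. Rows annotated inside the borders of H19, Gm27483 and Gm27786, each held between 5.76% and 6.94% of its count. With the strand setting not given, reads of H19 and of these genes cannot be told apart. Of 9 fibroblast markers, 3 were lower in both transgenic libraries (12% of all tested genes), and 4 of 7 leukocyte markers were higher in both (11.9%). The endothelial and neuroendocrine lists each held 1 marker lower in both, and the other lists held 0 in either direction. A link of these counts to H19 was not tested.

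Cdkn1c (ENSMUSG00000037664, chromosome 7, 143458350 to 143461050), in the neighbouring Kcnq1ot1 domain, did not follow H19. It stood at 174.8 CPM (B) and 131 CPM (E) with the transgene and at 144 CPM (D) and 165 CPM (F) without it. The highest and the lowest value both came from transgenic libraries. The group means were 153 ± 31.2 and 154 ± 14.6 CPM (SD, n = 2 each; log2 fold change -0.02, SE 0.17, adjusted p = 1 by edgeR). The ratio of H19 to Cdkn1c counts was 1.67 (B), 2.66 (E), 2.89 (D) and 2.26 (F). That ratio was lowest in B, and it spanned 0.79 on the log2 scale, against 0.13 for Meg3 and Rian, 0.33 for Dlk1 and Meg3 and 0.42 for Ndn and Peg3. Without E the log2 fold change of Cdkn1c was 0.17, and without F it was 0.08.

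Igf2, the paternally expressed growth factor gene next to H19, stood at 86.2 (B), 132.7 (E), 118 (D) and 125 CPM (F) (log2 fold change -0.15, SE 0.22). It was lowest in B, as H19 was, but highest in E, where H19 was not. The ratio of H19 to Igf2 counts, added after the values were seen, was 3.39 (B), 2.62 (E), 3.53 (D) and 2.99 (F).

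The Dlk1-Dio3 domain of chromosome 12 showed the widest differences, and they ran across genotype. Dlk1 (ENSMUSG00000040856, chromosome 12, 109452823 to 109463336) stood at 199 CPM (B) and 114 CPM (E) with the transgene and at 189 CPM (D) and 93.1 CPM (F) without it. Libraries B and D were high and E and F were low, with 1 library of each genotype on either side. The group means were 157 ± 60.4 CPM for the transgenic and 141 ± 67.8 CPM for the control pair (SD, n = 2 each; log2 fold change 0.15, SE 0.42, adjusted p = 1 by edgeR). B lay 2.14-fold above F, a ratio of highest to lowest library at the 86.1 percentile of all tested genes.

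Meg3 (ENSMUSG00000021268, chromosome 12, 109541001 to 109571726), a long non-coding RNA transcribed from the allele on which Dlk1 is silent, stood at 140.3 CPM (B) and 90.4 CPM (E) with the transgene and at 119 CPM (D) and 72.6 CPM (F) without it. Rian (ENSMUSG00000097451, chromosome 12, 109603940 to 109661716), which lies downstream of Meg3 and carries small nucleolar RNAs, stood at 141 CPM (B) and 83.0 CPM (E) with the transgene and at 115 CPM (D) and 70.0 CPM (F) without it. Their order was that of Dlk1, with B highest, then D, E and F. Log2 fold changes were 0.26 (SE 0.31) for Meg3 and 0.28 (SE 0.34) for Rian, each with an adjusted p of 1 by edgeR. Gm26906, annotated inside the borders of Meg3, held between 9.75% and 11.54% of the Meg3 count, and reads of the genes cannot be told apart there.

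Meg3 and Rian kept a nearly fixed ratio. Meg3 counts over Rian counts were 0.994 (B), 1.09 (E), 1.04 (D) and 1.04 (F), a span of 0.13 on the log2 scale, while each gene by itself varied 1.93-fold and 2.02-fold over the libraries. The counts of Dlk1 over Meg3 were 1.42 (B), 1.26 (E), 1.58 (D) and 1.28 (F), a span of 0.33. As a measure of likeness, the Euclidean distance between log2 CPM profiles centred on the mean of the 4 libraries was 0.093 for Meg3 and Rian. Among 15984 genes with a mean of at least 1 CPM, 11 were as near to Meg3 as Rian, Rian itself included, and 6 were as near to Rian as Meg3. From Dlk1, Rian lay at 0.235 (39 genes as near) and Meg3 at 0.262 (66 genes as near). These genes share libraries, so the distances are descriptions of 4 points.

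The direction of the genotype difference in this domain depended on single libraries. Without B the log2 fold change was -0.31 for Dlk1, -0.09 for Meg3 and -0.16 for Rian. Without F it was -0.27, -0.05 and -0.04 for the same genes, and without D it rose to 0.75, 0.67 and 0.68. Once the Y-linked covariate entered the fit, the values were 1.40, 1.11 and 1.09 (adjusted p = 1 for each by edgeR). The unadjusted p by edgeR was 0.115, 0.120 and 0.162. The Y-linked share largely followed genotype, so a fit to 4 libraries can hardly separate them. These values are therefore not sex-adjusted effects. Set against the control nearest on the first component, B was 1.06-fold D for Dlk1, 1.17-fold for Meg3 and 1.23-fold for Rian. For the same genes E was 1.22-fold, 1.25-fold and 1.19-fold F. Against the other control, B was 2.14-fold, 1.93-fold and 2.02-fold F, and E was 0.603-fold, 0.757-fold and 0.722-fold D. The nearest controls were picked from how the libraries lay, a split these genes follow, so the ratios are descriptions only. A term that sets B and D apart from the other libraries was chosen from how the libraries lay. Dlk1, Meg3 and Rian themselves show that split, so the term absorbs their spread, and p-values of that fit are descriptions only. On the first component, D (-4.19) lay nearer E (27.0) than B (-53.4). With that term, the unadjusted p by edgeR was 0.00706 for Meg3, 0.00677 for Rian and 0.0457 for H19. For Dlk1, Mest, Plagl1, Ndn, Peg3, Grb10 and Cdkn1c it ran from 0.0679 (Dlk1) to 0.861 (Cdkn1c). Of all tested genes, 6.14% had one under 0.05 and 0% an adjusted one. In that fit the adjusted p was 0.799 for Meg3, Rian and H19 (edgeR).

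Of the paternally expressed genes outside that domain, Mest, Peg3 and Ndn were each lowest in library B. Mest (ENSMUSG00000051855, chromosome 6, 30723547 to 30748455), which promotes growth in mice, stood at 475 CPM (B) and 676 CPM (E) with the transgene and at 628 CPM (D) and 704 CPM (F) without it. Only B stood apart, and E lay between the controls. The means were 576 ± 142 CPM for the transgenic and 666 ± 54.0 CPM for the control pair (SD, n = 2 each; log2 fold change -0.21, SE 0.21, adjusted p = 1 by edgeR), and without B the value was 0.02. The 3' end of Mest overlaps Copg2 on the other strand, so reads there may be shared.

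Peg3 (ENSMUSG00000002265, chromosome 7, 6703892 to 6730421), a zinc finger gene involved in growth and maternal care in mice, stood at 160.3 CPM (B) and 226 CPM (E) with the transgene and at 166 CPM (D) and 204 CPM (F) without it. It was low in B and D and high in E and F, the reverse of Dlk1, and the groups overlapped (log2 fold change 0.06, SE 0.21, adjusted p = 1 by edgeR). Without E the value was -0.21 and without D -0.08. Ndn (ENSMUSG00000033585, chromosome 7, 62348277 to 62349928), a suppressor of cell proliferation in the region that is deleted in Prader-Willi syndrome in humans, stood at 23.5 CPM (B) and 28.7 CPM (E) with the transgene and at 28.1 CPM (D) and 30.2 CPM (F) without it. Here E lay between the controls as it did for Mest (log2 fold change -0.16, SE 0.14, adjusted p = 1 by edgeR). The ratio of Ndn to Peg3 counts was 0.147 (B), 0.127 (E), 0.1696 (D) and 0.148 (F).

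Plagl1 and Grb10 varied least. Plagl1 (ENSMUSG00000019817, chromosome 10, 13060504 to 13131694), a transcription factor that regulates other imprinted genes in mice, stood at 101 CPM (B) and 89.3 CPM (E) with the transgene and at 92.9 CPM (D) and 82.9 CPM (F) without it. Its order was that of Dlk1 with a much smaller span, 1.22-fold from highest to lowest (log2 fold change 0.12, SE 0.12, adjusted p = 1 by edgeR). Grb10 (ENSMUSG00000020176, chromosome 11, 11930508 to 12038683) stood at 214 CPM (B) and 222 CPM (E) with the transgene and at 221 CPM (D) and 225 CPM (F) without it. Its libraries differed by 1.06-fold at most, at the 3.001 percentile of all tested genes, and its group means were 218 ± 6.28 and 223 ± 2.77 CPM (SD, n = 2 each; log2 fold change -0.04, SE 0.11, adjusted p = 1 by edgeR).

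**Figure D3:**
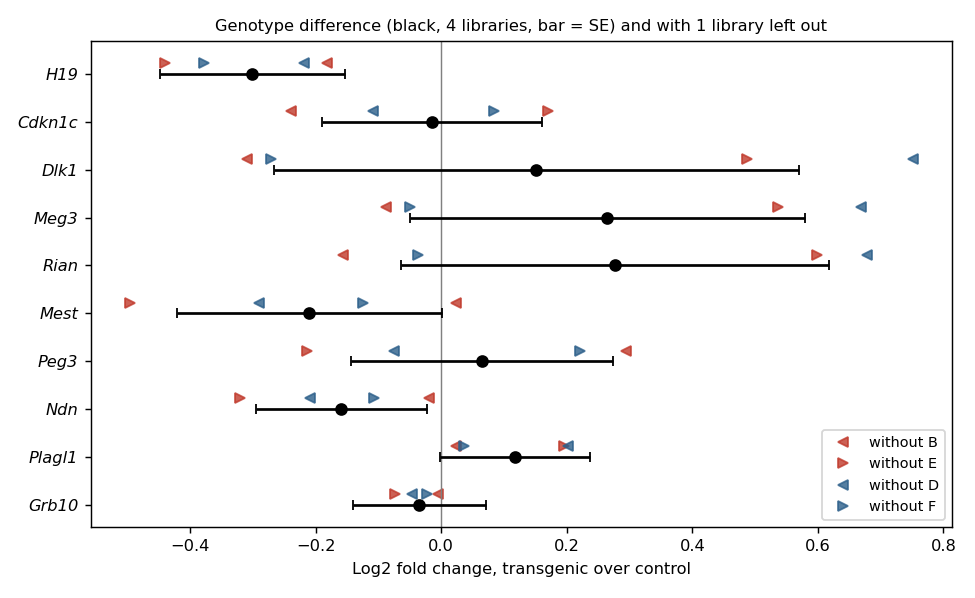
Log2 fold change of each gene, transgenic over control, with all 4 libraries (black point, bar of 1 SE) and with 1 library left out (triangles, red for a transgenic and blue for a control library). The triangles cross 0 for Cdkn1c, Dlk1, Meg3, Rian, Mest and Peg3 and stay on 1 side for H19, Ndn, Plagl1 and Grb10.

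Cell type markers also differed between libraries of the same genotype. The summed level of 7 epithelial markers was 2726 CPM in B and 1750.4 in E, against 2414 in D and 1711 in F, and 7 of 7 were higher in B and D than in E and F. The same held for 5 of 5 alveolar type 1 markers (B 1560, E 940.3, D 1613, F 838 CPM), 7 of 7 alveolar type 2 markers and 5 of 5 mesothelial markers (B 143, E 75.7, D 197, F 62.8 CPM). Of the 10 imprinted genes, Dlk1, Meg3, Rian and Plagl1 shared that order, 4 of 10 against 26.7% of all tested genes. Fibroblast markers ran the other way, with 1015 (B), 2400.4 (E), 1781 (D) and 2789 CPM (F), and 9 of 9 were lowest in B. So were 6 of 6 smooth muscle and pericyte markers and 7 of 7 endothelial markers (B 3877, E 6138, D 5027, F 6709 CPM). Of the imprinted genes H19, Mest, Peg3, Grb10 and Ndn were lowest in B, 5 of 10 against 33.9% of all tested genes. Cdkn1c, highest in B and lowest in E, had neither order. With 10 genes, these counts are not far from the shares over all genes and are given as a description.

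Lists for other cells varied less. Neuroendocrine markers summed to between 3.70 and 4.73 CPM, and proliferation markers to between 267 CPM in F and 320.9 CPM in E. The 7 leukocyte markers summed to between 700.3 CPM in F and 815 CPM in D. In the 10 lists no marker was at 0 in any library. The part of cell makeup in the values of the imprinted genes was not tested, and in bulk RNA fewer cells of a type and less RNA per cell cannot be told apart.

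**Figure D4:**
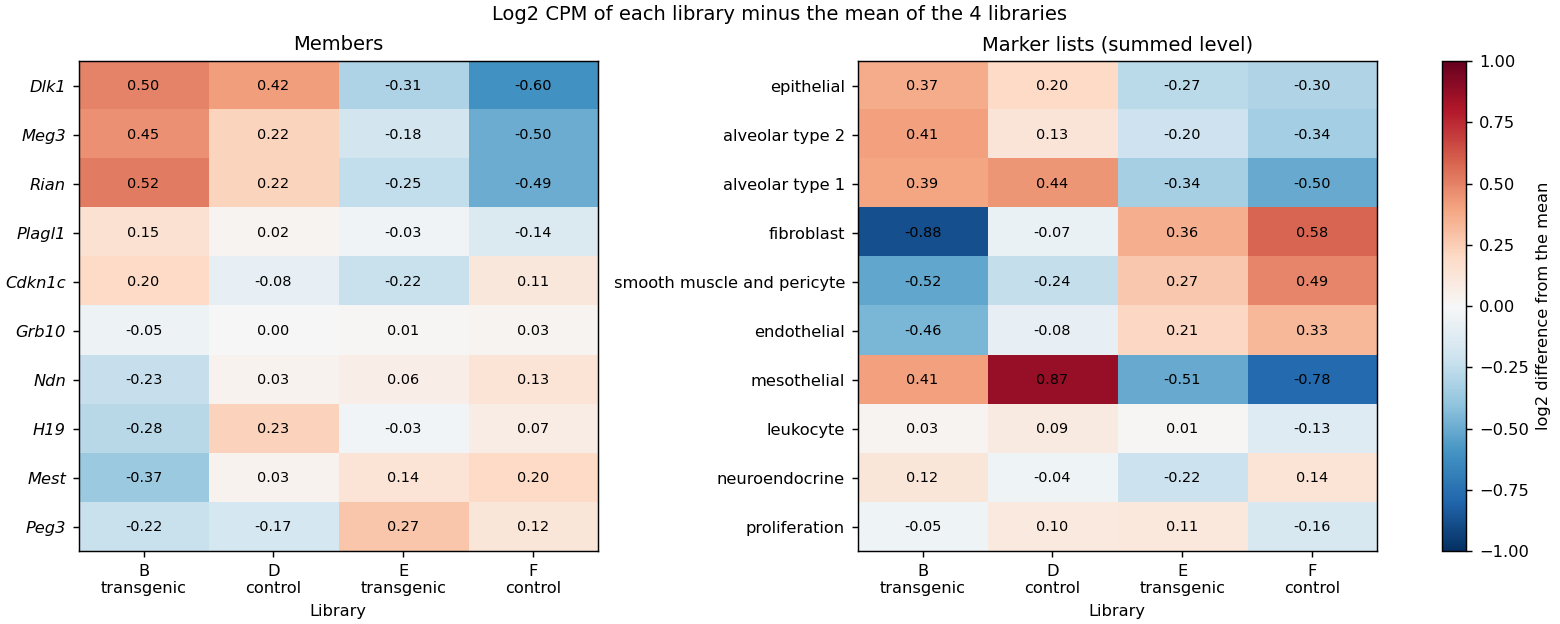
Log2 CPM of each library minus the mean of the 4 libraries, for the 10 imprinted genes (left) and for the summed level of each marker list (right), from blue (below the mean) to red (above it). Dlk1, Meg3 and Rian are red in B and D, as are the epithelial, alveolar and mesothelial lists, and Mest and Ndn are blue in B, as are the fibroblast, muscle and endothelial lists.

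Genes with the profile most like those of the 3 with the highest level per length were named by distance among 13616 genes with a mean of at least 1 CPM. For Mest they were Itga5, the fibronectin receptor chain (distance 0.017), the protein kinase gene Prkd2 (0.021) and the kinesin light chain gene Klc1 (0.024). Itga5, for example, stood at 112 (B), 162 (E), 149 (D) and 167 CPM (F). For H19 they were Tmem88 (0.031), Ggt7 (0.041) and Slc16a13 (0.046). For Cdkn1c they were Dnaaf1 (0.033) and Rsph9 (0.034), which are needed to build motile cilia, and Nabp1 (0.034). Dnaaf1 stood at 8.88 (B), 6.71 (E), 7.20 (D) and 8.24 CPM (F). Likeness over 4 libraries is a description only.

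Other genes of imprinted domains did not pass either. The list held 65 genes, of which 57 were matched by symbol and 53 were tested, and 0 were called in either direction (0% of all tested genes). They had a median log2 fold change of -0.05, and 21 of 53 were above 0, against 49.6% of all tested genes. The transgenic pair was separated upward from the control pair for 5 of 53 (11.9% of all tested genes) and downward for 10 of 53 (12%).

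Within the Dlk1-Dio3 domain, the microRNA host Mirg stood at 3.39 (B), 2.39 (E), 2.98 (D) and 1.82 CPM (F), the order of Meg3 and Rian at a far lower level, and Dio3os, antisense to the deiodinase gene Dio3, at 1.34, 1.03, 1.96 and 0.916 CPM in the same order of libraries. Nnat, a paternally expressed gene within Blcap that was picked after its values were seen, stood at 55.7 (B), 33.5 (E), 60.6 (D) and 32.0 CPM (F), high in B and D. Ddc, beside Grb10 and coding for aromatic amino acid decarboxylase, was high in B and D as well, at 8.31, 4.87, 9.70 and 3.24 CPM, while Cobl on the other side stood at 63.9, 50.7, 52.8 and 45.0 CPM. Neither Ddc nor Cobl shared the even level of Grb10. Of the 53 tested genes of the list, 16 (30.2%) were higher in B and D than in E and F. That share is near the 26.7% of all tested genes.

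Around the other genes, Copg2 beside Mest was lower in both transgenic libraries (261 CPM in B and 322 in E) than in both controls (326 in D and 332 in F), with a log2 fold change of -0.18 (SE 0.15). Klf14, also near Mest, was scarce at 0.079 CPM in B and between 0.323 and 0.361 in the others. In the Peg3 domain Zim1 stood at 0.569 (B), 1.84 (E), 1.40 (D) and 1.95 CPM (F), lowest in B as Mest was, and Usp29 was barely detected, with 0 to 12 counts. Of the domain of Ndn, the ubiquitin ligase gene Ube3a stood at 81.9 CPM (B) and 81.5 CPM (E) with the transgene and at 68.8 CPM (D) and 72.2 CPM (F) without it, and Snhg14, the host of antisense transcripts to it, had a log2 fold change of 0.12 (SE 0.15). For Ube3a the groups did not overlap, and the value of 0.21 (SE 0.09) missed the threshold (adjusted p = 1 by edgeR).

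Igf2r, which encodes the receptor that clears IGF2 and is maternally expressed in mice, stood at 234 (B), 284 (E), 258 (D) and 287 CPM (F), low in B and overlapping between groups. Its antisense RNA Airn had a log2 fold change of 0.09 (SE 0.15). Of the Peg10-Sgce domain, Ppp1r9a stood at 196 CPM (B) and 173 CPM (E) with the transgene and at 149 CPM (D) and 154 CPM (F) without it (log2 fold change 0.29, SE 0.11), without overlap of the groups, and Pon2 had 0.04 (SE 0.10). On distal chromosome 7, Cd81 and Nap1l4 had -0.07 (SE 0.12) and -0.05 (SE 0.09). Gnas, encoding the stimulatory G protein subunit, had the highest CPM of the list, between 916 CPM in F and 1004 CPM in D. Per length, Cd81 was above Gnas in every library (in B, for example, 77.4 against 68.8 RPKM). The log2 fold change of Gnas was -0.03 (SE 0.15), and H13 of the same group had -0.02 (SE 0.10). Phactr2 beside Plagl1 had 0.00394 (SE 0.15), and Trappc9 and Commd1 of other loci each had -0.06 (SE 0.09 and 0.13). All of these had an adjusted p of 1 by edgeR.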

How the data were processed

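Polyadenylated RNA of 4 mouse lung libraries was sequenced after Qiagen RNeasy extraction, per the labels' protocols. TopHat2 version 2, Bowtie version 1 and featureCounts version 1 are named in the submitters' processing notes, with the builds mm10 and GRCm38. Neither annotation release nor strand setting is stated there. The authors deposited 1 table with raw read counts per gene and library next to RPKM columns. The RPKM values deposited by the authors use the table's gene length and a library total larger than the sum of gene counts, which made up 80.3% to 82.7% of it.

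Symbols came by Ensembl identifier from GENCODE M21 for 42462 of 43346 genes. All pairs of libraries differed by more than sampling noise (smallest chi-square per gene 18.1, E with F). The filterByExpr filter (at least 10 counts, total of 15) left 20872 genes, which were scaled by TMM. Transgenic and control libraries were compared with the quasi-likelihood test of edgeR (version 4.0.16 in R 4.3.3, no covariate, Benjamini-Hochberg adjustment over all tested genes at 0.05). A standard error is the absolute fold change (log2) over the root of the F statistic. Levels between genes were compared as deposited RPKM. Log2 CPM profiles used a prior count of 2.

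The members, lists, tests and alternatives were chosen with earlier results of these data known, including the term that sets B and D apart and the Y-linked share. The genes named are the members, in each imprinted domain the 2 tested genes with the highest mean CPM, and the 3 nearest profiles of the 3 members with the highest mean RPKM, without predicted genes. Igf2, Nnat and the ratio of H19 to Igf2 were added after values were seen. Alternatives were DESeq2 1.42.0, limma-voom (limma 3.58.1), other scaling, filters and quasi-likelihood settings, and each library left out. Promoter and microRNA sequences are from RefSeq (GRCm38.p6).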

Additional observations from a re-analysis of the deposited data

How the results depend on the processing

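Under 13 alternatives 0 of the 10 imprinted genes and 0 of the 53 other genes of imprinted domains were called, and the smallest adjusted p of any of the 10 was 0.386 (Mest without library E). Of 130 values of the 10 genes under these alternatives, 118 kept their direction and 12 reversed, 11 of these with 1 library left out. H19, Plagl1, Grb10 and Ndn kept their direction in all 13. The reversal outside these was that of Peg3 with the Y-linked covariate (-0.20), which largely followed genotype. With 1 library left out, the log2 fold change ran from -0.50 to 0.023 for Mest, from -0.21 to 0.29 for Peg3, from -0.31 to 0.75 for Dlk1, from -0.088 to 0.67 for Meg3, from -0.16 to 0.68 for Rian and from -0.24 to 0.17 for Cdkn1c. Across all tested genes 2 were called without B, 15 without E, 0 without D and 5 without F, and DESeq2 called 1. The median of the other imprinted genes ran from -0.093 to 0.0089 with 1 library left out and was 0.034 with the Y-linked covariate. In the order of levels per length, another rank than that of the mean was held by 4 of the 10 genes in each of B, D and E and by 5 in F. Of the 9 genes named for similar profiles, 8 were also found with a minimum of 5 CPM. The causes were not tested. No paired analysis was possible because the labels give the libraries letters and no replicate numbers. The term that sets B and D apart was chosen from how the libraries lay, not from a pairing in the labels. With 2 libraries per group the spread between libraries, not counting depth, limits what could be detected.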
